A study of Mus musculus with 21 samples.

Results

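The eicosanoid genes described here are 10 genes of prostaglandin and leukotriene synthesis and signalling, chosen by name: Ptgs1, Ptgs2, Ptges, Ptger2, Ptger4, Hpgds, Tbxas1, Alox5, Alox5ap and Ltc4s. All 10 were present among the 45706 gene rows of the expression table, and all 10 passed the filter of at least 5 counts over all libraries. The table holds 21 libraries in 7 groups of 3, made from myeloid cells sorted out of the brains of adult male mice after controlled cortical impact (CCI), an impact on the exposed cortex that models traumatic brain injury. Microglia (CD45lowCD11b+ cells) came from wildtype (WT) sham mice, which had the craniotomy without the impact, and from WT and Fgg390-396A mice (called Fgg mice below) at 1 d and 7 d post-CCI. Infiltrating myeloid cells (CD45hiCD11b+ cells) came from injured WT and Fgg mice at 1 d. Fgg390-396A is a germline change, carried by every cell, in the fibrinogen γ chain that removes the binding site for the integrin CD11b/CD18 while the protein still clots, so the level of Fgg RNA does not check the labels. Each library pooled the sorted cells of 2 mice, 40000 microglia or 25000 infiltrating cells. There were no sham Fgg mice and no infiltrating cells from sham mice or from 7 d, so each comparison of injured with sham microglia uses the same 3 WT sham libraries. For Fgg microglia such a comparison holds both injury and genotype, which cannot be told apart in it.

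Prostaglandins and leukotrienes are lipid messengers made from arachidonic acid that phospholipases free from the cell membrane. The cyclooxygenases, constitutive Ptgs1 and inducible Ptgs2, turn it into an unstable intermediate, and a terminal synthase then sets the product: Ptges makes prostaglandin E2, Hpgds prostaglandin D2 and Tbxas1 thromboxane A2. Prostaglandin E2 acts on receptors that include Ptger2 and Ptger4. In the other branch the lipoxygenase Alox5, with its partner Alox5ap at the nuclear membrane, makes leukotriene A4, which Ltc4s joins to glutathione to give leukotriene C4. Microglia are known for Ptgs1 and Hpgds at rest, and Ptgs2 for its induction by inflammatory stimuli.

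Levels are given as CPM, that is, as a gene's counts scaled to a common library size with edgeR's TMM factors. Gene length had been divided out in the deposited values, so that levels can be compared between genes as well as between libraries. Total counts ranged from 18896957 to 51875767 per library, and 3 counts, taken as the smallest level that can be shown, were worth between 0.0448 and 0.158 CPM, a floor that covers counting error only. A unit of these values is not exactly a read: for the 11227 genes of 1000 to 3000 bases the smallest value above 0 had a median of 2.56. The 10 microglia markers were all detected in every group, with a summed level of 2894 to 12996 CPM in microglia libraries and 354 to 985 CPM in infiltrating cells. The 8 markers of infiltrating monocytes and macrophages summed to 7.49 to 149 CPM in microglia and to 1857 to 2252 CPM in infiltrating cells. Infiltrating cells also held neutrophil markers, at 2774 to 13216 CPM over 10 genes, against 105 to 870 CPM in microglia. Every RNA level is an average over the sorted cells, so fewer cells of a type and less RNA per cell cannot be told apart.

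In WT microglia at 1 d, 5 of the 10 genes differed from sham by more than 1 on the log2 scale at an adjusted p below 0.05 in edgeR's quasi-likelihood test (12.3% of all genes tested did). Ptgs2, Ptges and Ptger4 rose, and Ptgs1 and Ltc4s fell. In Fgg microglia at 1 d the genes called were Ptgs2, Ptges and Ptger4, all higher than in sham (3 of 10, against 6.64% of all genes, of which 82.7% were higher, or 71.7% with DESeq2's size factors). At 7 d the gene called was Ptger4, in WT microglia (1 of 10, against 2.02% of all genes) and in Fgg microglia (1 of 10, against 0.663%). Called above WT sham at 1 d in both genotypes were thus the inducible cyclooxygenase, the inducible prostaglandin E synthase and a prostaglandin E2 receptor. The call of Ptges in Fgg microglia did not hold when 1 library was left out. Hpgds, Tbxas1, Alox5 and Alox5ap were called in none of these 4 comparisons, and neither was Ptger2, which was at or near the floor in sham.

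**Figure D1:**
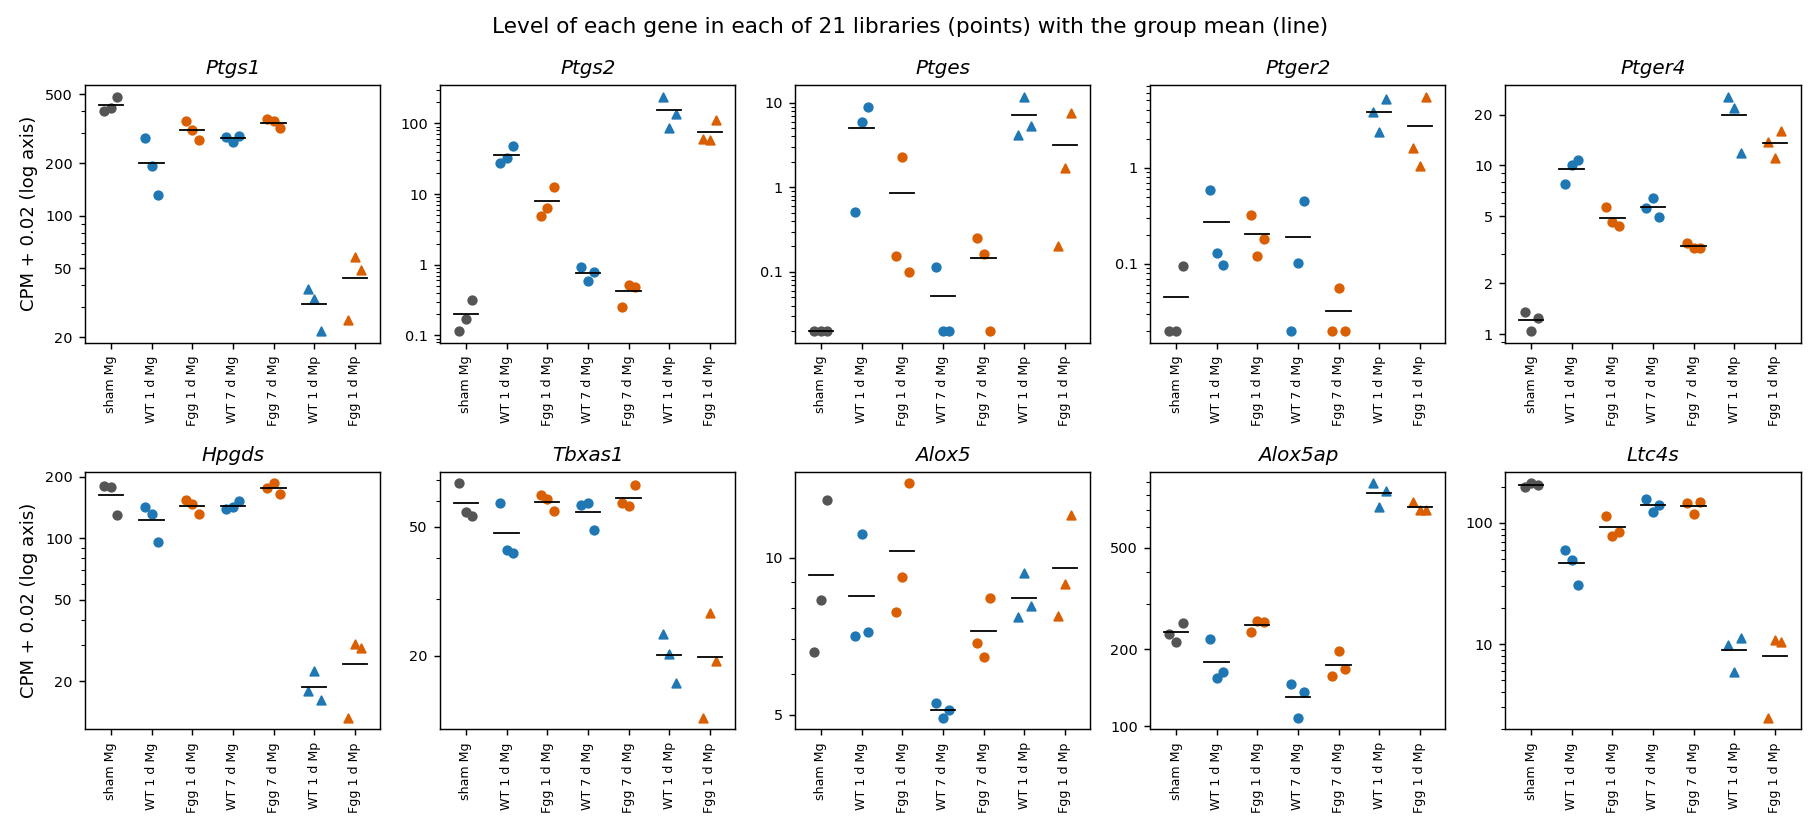
Level of each of the 10 genes in CPM, with 0.02 added so that zeros show on the log axis, for each library (point) with the mean of its group (line). Mg is microglia (circles), Mp infiltrating myeloid cells (triangles), grey marks sham, blue WT and orange Fgg. Ptgs2 spans from 0.0956 CPM in a sham library to 240 CPM in a WT infiltrating library, whereas Alox5 stays between 4.92 and 13.9 CPM.

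Ptgs2 (ENSMUSG00000032487, GRCm38 chr1:150100031-150108227, plus strand) was close to the floor in sham microglia, at 0.0956, 0.152 and 0.302 CPM. In WT microglia at 1 d it was at 27.6, 32.2 and 48.5 CPM. The groups did not overlap, and the difference was 185-fold (log2 fold change 7.53, SE 0.56, adjusted p = 8.4e-08, edgeR's quasi-likelihood test). In Fgg microglia of that day Ptgs2 was at 4.86, 6.42 and 12.5 CPM. It was 40.4-fold above sham (log2 fold change 5.34, SE 0.54, adjusted p = 2.5e-06, edgeR), and its highest library was below the lowest WT library of that day. At 7 d most of the rise had gone, with 0.908, 0.569 and 0.773 CPM in WT and 0.231, 0.502 and 0.466 CPM in Fgg microglia. From 1 d to 7 d Ptgs2 fell by 5.59 on the log2 scale in WT (SE 0.50, adjusted p = 5e-06, edgeR) and by 4.33 in Fgg microglia (SE 0.49, adjusted p = 6e-05, edgeR). The WT libraries of 7 d still lay above the sham libraries without overlap, at a log2 difference of 1.94 (SE 0.59) and an adjusted p of 0.10 (edgeR) that missed the threshold. That difference passed with DESeq2's Wald test (adjusted p = 0.0098) and with the replicate number as a block (adjusted p = 0.045).

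Levels of Ptgs2 at 1 d were set beside those of marker lists. Genes known to respond to tissue dissociation, such as Fos and Jun, summed to 928 to 1095 CPM in WT microglia at 1 d and to 291 to 897 CPM in Fgg microglia. In sham they were at 1508, 254 and 331 CPM. Monocyte and macrophage markers were at 7.49 to 47.8 CPM in sham and 86.2 to 149 CPM in WT microglia at 1 d, without overlap. In Fgg microglia of that day they were at 33.0 to 99.0 CPM. Neutrophil markers overlapped between sham (160 to 815 CPM) and WT microglia at 1 d (173 to 842 CPM). Monocyte and macrophage markers in WT microglia at 1 d stood at 5.96% of their level in WT infiltrating cells, neutrophil markers at 6.26% and Ptgs2 at 23.5%. In Fgg microglia the corresponding values were 2.83%, 4.88% and 10.3%. Markers of border-associated macrophages stood at 17.6% in WT and 13.3% in Fgg mice, those of platelets at 14.5% and 25.1%, and the dissociation genes at 30.7% and 22.3%. The percentage for Ptgs2 was above those of the monocyte and neutrophil lists in both genotypes, below that of the dissociation genes in both, and in Fgg mice also below those of border-associated macrophages and platelets. The part of these cells and of dissociation in the level of Ptgs2 was not tested.

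Ptgs1 (ENSMUSG00000047250, chr2:36230426-36252272, plus strand), the constitutive enzyme, was the most abundant of the 10 genes in sham microglia, at 398, 419 and 484 CPM. In WT microglia at 1 d it was at 280, 193 and 131 CPM, below every sham library. It fell 2.16-fold (log2 fold change -1.11, SE 0.28, adjusted p = 0.0072, edgeR). Without WT replicate 3, the lowest library, the log2 difference was -0.84 and the adjusted p 0.066 (edgeR). Ptgs1 in Fgg microglia of 1 d was at 350, 311 and 274 CPM, with a log2 difference from sham of -0.48 (SE 0.27, adjusted p = 0.34, edgeR). By 7 d it was at 286, 267 and 288 CPM in WT and 361, 352 and 318 CPM in Fgg microglia, and neither group was called against sham (log2 differences -0.63 and -0.34, adjusted p = 0.36 and 0.84, edgeR). The 10 microglia markers moved with Ptgs1: their summed level was 11896 to 12996 CPM in sham, 2894 to 4936 CPM in WT at 1 d and 5608 to 7342 CPM in Fgg microglia at 1 d, and the part of that change in the level of Ptgs1 was not tested.

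The balance of the cyclooxygenases within a library needs no scaling between libraries. Ptgs2 was 0.0240%, 0.0362% and 0.0623% of the summed counts of Ptgs1 and Ptgs2 in sham microglia, and 8.99%, 14.3% and 27.0% in WT microglia at 1 d. In Fgg microglia at 1 d it was 1.37%, 2.02% and 4.38%. At 7 d the share averaged 0.266% ± 0.0521 (SD, n = 3) in WT and 0.118% ± 0.0466 (SD, n = 3) in Fgg microglia. In infiltrating cells Ptgs2 was the larger of the pair, at 81.6% ± 8.12 (SD, n = 3) in WT and 63.5% ± 11.4 (SD, n = 3) in Fgg cells. On the log2 scale the ratio of Ptgs2 to Ptgs1 averaged -11.2 in sham, -2.45 in WT microglia and -5.40 in Fgg microglia at 1 d, -8.53 and -9.76 at 7 d, and 2.23 and 0.83 in infiltrating cells. In each of the 11 comparisons of groups the libraries did not overlap, and each two-sided exact permutation test gave p = 0.1, adjusted p = 0.1, the smallest value that 3 libraries against 3 allow.

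**Figure D2:**
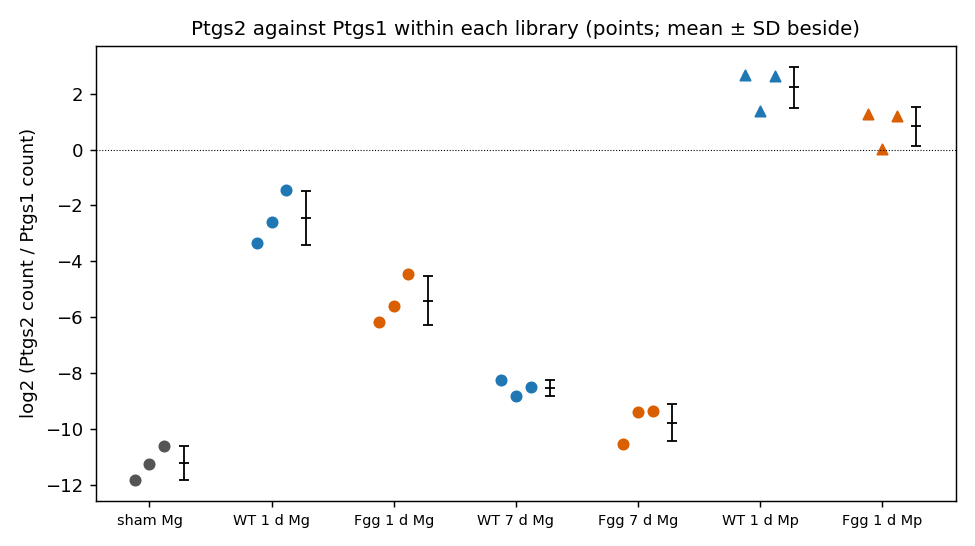
Log2 ratio of the Ptgs2 count to the Ptgs1 count in each library (points, coloured as in the plot of levels), with the mean and SD of the 3 libraries of each group (black). Sham microglia lie lowest (mean -11.2), WT microglia at 1 d are highest among microglia (mean -2.45), and infiltrating cells lie above 0, where Ptgs2 exceeds Ptgs1.

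The sequences upstream of the start are shown for the 5 genes called in WT microglia at 1 d, because they rose and fell in the same cells: the 250 bases before the RefSeq start (GRCm38.p6), each read 5′ to 3′ on the strand of its gene. Capitals mark matches to 6 short motifs searched on both strands in the promoters of 9 of the 10 genes. Alox5ap had no entry. The windows are Ptgs2 at chr1:150099781-150100030 (plus strand), Ptges at chr2:30903298-30903547 (minus), Ptger4 at chr15:5244188-5244437 (minus), Ptgs1 at chr2:36230176-36230425 (plus) and Ltc4s at chr11:50238533-50238782 (minus). That of Ptges lies inside the longer GENCODE gene, and that of Ltc4s begins outside its gene and ends inside it.
Ptgs2 (rose): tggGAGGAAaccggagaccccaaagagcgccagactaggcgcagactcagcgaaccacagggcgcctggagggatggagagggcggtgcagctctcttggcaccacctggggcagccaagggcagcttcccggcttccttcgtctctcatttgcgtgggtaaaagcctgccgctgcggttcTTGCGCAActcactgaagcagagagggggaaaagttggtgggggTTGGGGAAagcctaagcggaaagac
Ptges (rose): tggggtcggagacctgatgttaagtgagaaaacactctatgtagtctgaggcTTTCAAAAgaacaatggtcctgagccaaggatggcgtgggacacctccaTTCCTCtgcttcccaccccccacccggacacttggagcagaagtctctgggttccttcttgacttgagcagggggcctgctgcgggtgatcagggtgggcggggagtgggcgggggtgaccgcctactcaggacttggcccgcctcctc
Ptger4 (rose): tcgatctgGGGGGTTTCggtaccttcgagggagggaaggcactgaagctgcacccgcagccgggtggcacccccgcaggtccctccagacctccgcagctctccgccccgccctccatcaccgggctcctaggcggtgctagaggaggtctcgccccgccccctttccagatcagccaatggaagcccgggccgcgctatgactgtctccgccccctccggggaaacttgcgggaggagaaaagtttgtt
Ptgs1 (fell): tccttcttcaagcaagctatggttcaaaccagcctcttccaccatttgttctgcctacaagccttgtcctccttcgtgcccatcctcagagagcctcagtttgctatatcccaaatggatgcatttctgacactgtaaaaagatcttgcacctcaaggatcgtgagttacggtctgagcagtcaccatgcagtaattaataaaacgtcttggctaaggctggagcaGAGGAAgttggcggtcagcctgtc
Ltc4s (fell): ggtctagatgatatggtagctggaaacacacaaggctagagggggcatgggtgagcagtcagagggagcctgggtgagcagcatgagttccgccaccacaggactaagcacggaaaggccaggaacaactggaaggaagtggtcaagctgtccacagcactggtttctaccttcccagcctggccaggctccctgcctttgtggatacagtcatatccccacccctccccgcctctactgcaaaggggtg

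The C/EBP form TTNNGNAA was found in the promoters of Ptgs2, Ptges, Ptger2 and Hpgds (4 of 9, against 36.8% of all 32851 promoters in the table). In Ptgs2 it occurred at bases -69 to -62 as TTGCGCAA and at -25 to -18. The κB form GGGNNTTNC was matched in Ptger4 among the 9 (13% of all promoters), and the PU.1/ETS core GAGGAA in Ptgs1, Ptgs2, Ptges, Hpgds, Tbxas1 and Alox5 (6 of 9, against 23.3%). The AP-1 motif TGANTCA and the TATAAA box each matched in Tbxas1 (6.75% and 12.4% of all promoters), and TGACG, the core of a cAMP response element, in none of the 9 (17.8%). Among the genes that rose, Ptgs2 and Ptges held the C/EBP form and the PU.1/ETS core, and Ptger4 the κB form. Of those that fell, Ptgs1 also held the PU.1/ETS core, while the window of Ltc4s held none of the 6. Hpgds and Ptger2, which were not called against sham, held the C/EBP form as well. These matches are letters in a window and were not tested for binding.

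Ptges (ENSMUSG00000050737, chr2:30889471-30929863, minus strand), the inducible prostaglandin E synthase, had no count in any sham library. In WT microglia at 1 d it was at 0.496, 5.83 and 8.82 CPM (13, 161 and 226 counts). Its mean there was at least 44.3-fold above sham, taking 3 counts per library as the floor (adjusted p = 0.0033, edgeR). Ptges in Fgg microglia of 1 d was at 0.134, 2.29 and 0.0804 CPM (9, 91 and 2 counts), so that replicate 2 held most of its counts. Its mean was at least 7.33-fold above the same floor (adjusted p = 0.039, edgeR). Without that library the adjusted p was 0.31, and it was 0.11, 0.10 and 0.12 without sham replicate 1, 2 or 3, so that the call in Fgg microglia did not hold when 1 library was left out. At 7 d Ptges was back at the floor in WT microglia, with 2 counts over the 3 libraries, against 13, 161 and 226 at 1 d (adjusted p = 0.014, edgeR). Without WT replicate 2 or 3 of 7 d the adjusted p was 0.071. Fgg microglia at 7 d held 9, 4 and 0 counts.

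Hpgds (ENSMUSG00000029919), the haematopoietic prostaglandin D synthase, was called in none of the 4 injured microglia groups. It was at 179, 178 and 130 CPM in sham, at 142, 131 and 96.1 CPM in WT and at 154, 146 and 131 CPM in Fgg microglia at 1 d, and the 3 groups overlapped. The log2 difference from sham was -0.40 in WT (95% interval -0.89 to 0.09) and -0.17 in Fgg microglia (-0.66 to 0.32). Tbxas1 (ENSMUSG00000029925), the thromboxane synthase, was at 68.1, 55.6 and 54.2 CPM in sham and between 41.5 and 62.7 CPM in the injured microglia of 1 d. Its log2 difference from sham was -0.31 in WT (-0.76 to 0.14) and 0.01 in Fgg microglia (-0.44 to 0.46). All of these intervals leave out a change of 1 log2 unit in either direction. Of Ptges, Hpgds and Tbxas1, the 3 synthases that act after the cyclooxygenases, Ptges was the one called against sham at 1 d. Tbxas1 overlaps annotated genes on the opposite strand, among them Hipk2, as do Hpgds (Gm17147), Ptger4 (Ttc33), Ptger2 (Gm17173), Alox5ap (Gm19719), Ptgs1 (Gm43621) and Ltc4s (Gm26542). Where reads were not counted by strand, which is not given in the sources used here, such genes cannot be told apart. On their own strand, Ptges overlaps the pseudogene Gm13400 and Tbxas1 the snoRNA gene Gm23010.

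**Figure D3:**
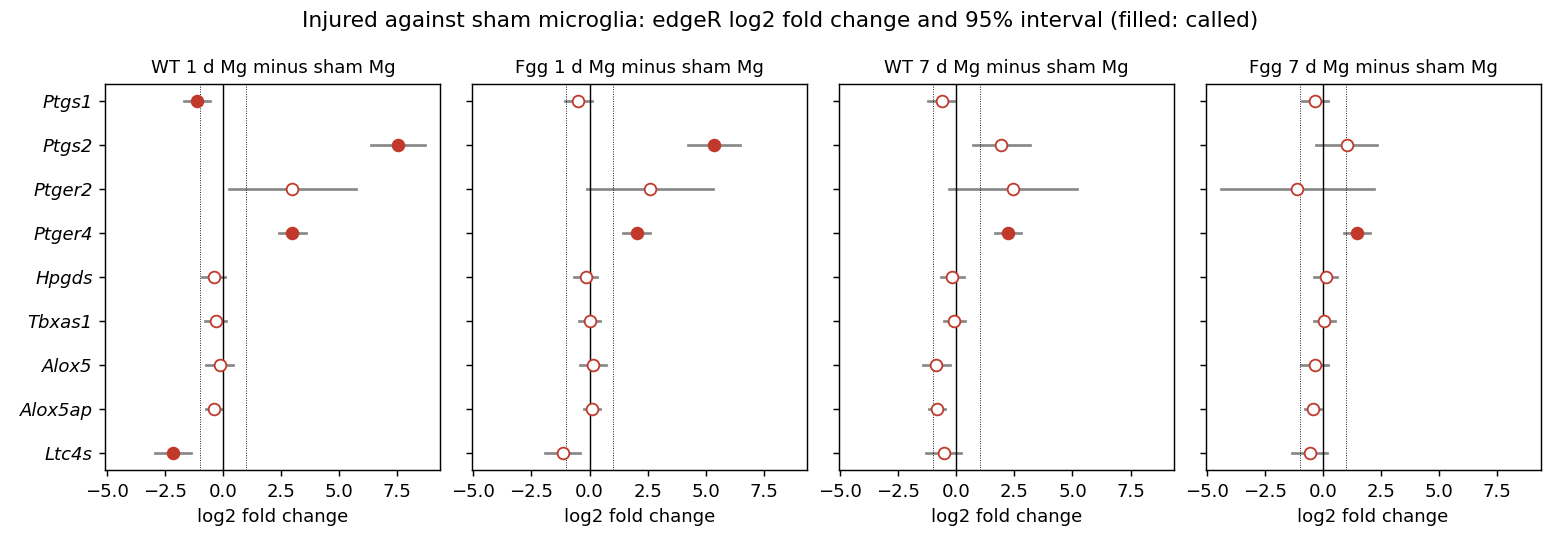
Log2 fold change of injured over sham microglia for 9 of the 10 genes (points) with 95% intervals (bars), from edgeR's fit, at 1 d and 7 d in WT and Fgg mice. Filled points were called, and dotted lines mark a log2 fold change of 1 and -1. Ptges is left out because sham libraries held none of its counts. Ptgs2 and Ptger4 lie to the right at 1 d in both genotypes, and Ptger4 is the filled point at 7 d.

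Of the receptors for prostaglandin E2, Ptger4 (ENSMUSG00000039942, the EP4 receptor, which raises cAMP) rose in all 4 injured microglia groups. It was at 1.34, 1.02 and 1.23 CPM in sham and at 7.79, 10.1 and 10.7 CPM in WT microglia at 1 d, a 7.91-fold difference (log2 fold change 2.98, SE 0.28, adjusted p = 5.6e-07, edgeR). In Fgg microglia at 1 d it was at 5.68, 4.61 and 4.38 CPM, 4.07-fold above sham (log2 fold change 2.02, SE 0.27, adjusted p = 5.4e-05, edgeR). The lowest injured library of that day was above the highest sham library, and the 2 genotypes did not overlap. Unlike Ptgs2, Ptger4 was still called at 7 d. It was at 5.59, 6.38 and 4.95 CPM in WT microglia, 4.68-fold above sham (log2 fold change 2.23, SE 0.27, adjusted p = 9.1e-05, edgeR). Fgg microglia of 7 d had 3.43, 3.23 and 3.23 CPM, 2.74-fold above sham (log2 fold change 1.45, SE 0.27, adjusted p = 0.010, edgeR). Without sham replicate 2 that adjusted p was 0.072. From 1 d to 7 d Ptger4 was not called in either genotype (log2 differences -0.76 and -0.57, adjusted p = 0.066 and 0.26, edgeR).

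Ptger2 (ENSMUSG00000037759, the EP2 receptor, which also raises cAMP) was low in every microglia library, between 0 and 0.573 CPM. Replicate 1 of WT and of Fgg microglia at 1 d held 15 and 20 counts, above the floor of 3 counts. Sham held 3 counts in all, against 20 in WT microglia at 1 d (adjusted p = 0.14, edgeR). At this depth no difference from sham was called for Ptger2 in microglia. Infiltrating cells had 3.77, 2.32 and 5.18 CPM of Ptger2 in WT and 1.58, 1.01 and 5.46 CPM in Fgg mice, all above every microglia library.

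In the leukotriene branch, Ltc4s (ENSMUSG00000020377) fell at 1 d. It was at 200.0, 212 and 204 CPM in sham and at 60.2, 49.1 and 30.5 CPM in WT microglia at 1 d, a 4.41-fold fall (log2 fold change -2.14, SE 0.37, adjusted p = 0.00035, edgeR). In Fgg microglia at 1 d it was at 115, 78.2 and 84.3 CPM, below every sham library and above every WT library. That difference from sham had a log2 fold change of -1.15 (SE 0.36) and an adjusted p of 0.050 (edgeR) that was not below the threshold. With DESeq2's Wald test the adjusted p was 0.0040, and over all alternatives it ranged from 0.0040 to 0.20. At 7 d Ltc4s was at 159, 123 and 140 CPM in WT and 145, 120 and 150 CPM in Fgg microglia. In WT microglia it rose 3.02-fold from 1 d to 7 d (log2 fold change 1.59, SE 0.37, adjusted p = 0.0069, edgeR), with an adjusted p of 0.064 without WT replicate 3 of 1 d. Mast cells also carry Ltc4s and Hpgds, and the 8 mast cell and basophil markers summed to 0 to 2.06 CPM in sham, 0.615 to 10.9 CPM in WT and 0.327 to 1.13 CPM in Fgg microglia at 1 d. Of the 8, 5, 4 and 6 were at 0 in every library of these groups, among them Mcpt4 and Cma1 in all 3, and their part in the level of Ltc4s was not tested. The summed microglia markers also fell at 1 d, from a mean of 12289 CPM in sham to 4039 CPM in WT and 6200 CPM in Fgg microglia. At 7 d they averaged 7915 CPM in WT and 9043 CPM in Fgg microglia. The part of that change in the level of Ltc4s was not tested.

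Alox5 (ENSMUSG00000025701) and Alox5ap (ENSMUSG00000060063), which act together ahead of Ltc4s, were not called against sham at 1 d. Alox5 was low, at 6.57, 8.28 and 12.9 CPM in sham, 7.06, 11.1 and 7.18 CPM in WT and 7.86, 9.16 and 13.9 CPM in Fgg microglia of 1 d, with overlap among all 3 groups. Alox5ap was at 231, 214 and 255 CPM in sham, 219, 154 and 164 CPM in WT and 233, 258 and 255 CPM in Fgg microglia of 1 d. At 7 d both were below sham in WT microglia without overlap. Alox5 was at 5.26, 4.92 and 5.10 CPM (log2 difference -0.86, SE 0.28, adjusted p = 0.14, edgeR). Alox5ap was at 147, 108 and 136 CPM, and its log2 difference of -0.84 (SE 0.16, adjusted p = 0.0053, edgeR) was past the threshold on p and short of that on fold change. In Fgg microglia of 7 d the log2 differences were -0.36 for Alox5 and -0.42 for Alox5ap (adjusted p = 0.82 and 0.46, edgeR).

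Changes between days repeat these levels from another side. From 1 d to 7 d, 3 of the 10 genes were called in WT microglia (7.06% of all genes were): Ptgs2 and Ptges fell and Ltc4s rose. In Fgg microglia 1 of the 10 was called, Ptgs2, which fell (3.54% of all genes were called). These comparisons use the same 1 d libraries as those with sham.

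Between genotypes, the comparison that asks whether the CD11b/CD18 binding site of fibrin matters for these cells, 1 of the 10 genes was called in microglia at 1 d (0.0546% of all genes, 13 in number, were called, here at an adjusted p below 0.1). Ptgs2 was 4.58-fold lower in Fgg than in WT microglia, 4.86 to 12.5 CPM against 27.6 to 48.5 CPM without overlap (log2 fold change -2.20, SE 0.40, adjusted p = 0.063, edgeR). At an adjusted p below 0.05, the threshold of the other comparisons, it was not called. The difference kept its direction when any 1 library was left out, with log2 values from -2.68 to -1.93. The adjusted p then ranged from 0.028 to 0.46: it was 0.34 and 0.42 without Fgg replicate 1 or 2, 0.12 and 0.46 without WT replicate 2 or 3, and 0.24 in a fit of these 2 groups alone. With the replicate block it was 0.016 and with DESeq2's Wald test 6.1e-05, so that over all alternatives it ranged from 6.1e-05 to 0.46. Microglia of the 2 genotypes also differed without overlap in the summed microglia markers (2894 to 4936 CPM in WT, 5608 to 7342 CPM in Fgg) and in the dissociation list given above, whose part in the Ptgs2 difference was not tested.

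Ptger4, Ltc4s and Alox5ap also did not overlap between genotypes at 1 d (4 of the 10 genes with Ptgs2, against 8.72% of all genes), and none of the 3 passed. Ptger4 had a log2 difference of -0.96 (SE 0.25, adjusted p = 0.62), Ltc4s one of 0.99 (SE 0.36, adjusted p = 0.89) and Alox5ap one of 0.47 (SE 0.16, adjusted p = 0.87, all edgeR). Ptgs1 stood at a log2 difference of 0.63 (SE 0.27, adjusted p = 0.89, edgeR), with the lowest Fgg library at 274 CPM and the highest WT library at 280 CPM. In these genes the Fgg mean lay between the WT mean and the sham mean, except for Alox5ap, whose Fgg mean of 249 CPM was above the sham mean of 233 CPM.

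In microglia at 7 d 0 of the 10 genes were called between genotypes (0.0378% of all genes were), and 0 by DESeq2. At an unadjusted p under 0.05 in edgeR were 3 of the 10, against 795 of all 23815 genes tested. The libraries did not overlap for 6 of the 10 genes (11.1% of all genes). Ptger4 again did not overlap, at 4.95 to 6.38 CPM in WT and 3.23 to 3.43 CPM in Fgg microglia (log2 difference -0.77, SE 0.26, adjusted p = 1, edgeR). In infiltrating cells 0 of the 10 were called (0.453% of all genes were), and 0 by DESeq2. Here 2 of the 10 had an unadjusted p under 0.05 in edgeR, against 2749 of all 23815 genes tested. Ptgs2 there was at 240, 86.3 and 136 CPM in WT and 59.5, 58.9 and 112 CPM in Fgg cells. These overlapped, with a log2 difference of -1.004 (95% interval -1.81 to -0.20, adjusted p = 0.33, edgeR). The difference between the genotype effects in infiltrating cells and in microglia was 1.19 for Ptgs2 on the log2 scale (SE 0.55, adjusted p = 0.58, edgeR), so a genotype effect particular to microglia was not shown. Over both tests of this kind, between cell types and between days, 0 of the 10 genes were called (0.0462% and 0% of all genes were). DESeq2 called 0 of the 10 in either. At an unadjusted p under 0.05 in edgeR were 3 and 0 of the 10, against 1994 and 653 of all 23815 genes tested.

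Infiltrating myeloid cells and microglia of 1 d differed in the RNA levels of these genes. In WT mice 8 of the 10 genes were called between them (11.9% of all genes were), with Ptgs2, Ptger2, Ptger4 and Alox5ap higher in infiltrating cells and Ptgs1, Hpgds, Tbxas1 and Ltc4s lower. In Fgg mice the same 8 genes were called in the same directions (16.7% of all genes were). The 2 comparisons share no library. The sort itself separated these cells by CD45, and the cells also differ in kind, so these differences describe the 2 gates.

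The inducible cyclooxygenase and the receptors were higher in infiltrating cells. Ptgs2 was 4.26-fold higher in WT (log2 fold change 2.09, SE 0.40, adjusted p = 0.00096, edgeR) and 9.74-fold higher in Fgg mice (3.28, SE 0.42, adjusted p = 1.4e-05, edgeR). Ptger4 was at 25.5, 21.8 and 11.9 CPM in WT and 13.7, 10.98 and 15.9 CPM in Fgg infiltrating cells, with log2 differences of 1.05 (SE 0.25, adjusted p = 0.0064, edgeR) and 1.47 (SE 0.26, adjusted p = 0.00035, edgeR) from microglia. In WT that of Ptger4 was 0.92 without microglia replicate 1 and 0.82 without infiltrating replicate 1, below the threshold on fold change. Ptger2 had log2 differences of 3.87 (SE 1.20, adjusted p = 0.033, edgeR) and 3.80 (SE 1.19, adjusted p = 0.028, edgeR). Its adjusted p reached 0.12 in both genotypes when 1 library was left out. Libraries whose removal took it past 0.05 were microglia replicates 2 and 3 and infiltrating replicates 1 and 3 in WT (0.12, 0.11, 0.062 and 0.092), and the 3 microglia replicates and infiltrating replicate 3 in Fgg mice (0.057, 0.10, 0.084 and 0.12).

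Alox5ap was the most abundant of the 10 genes in infiltrating cells, at 891, 722 and 835 CPM in WT and 756, 701 and 700.2 CPM in Fgg mice. It was 4.56-fold above microglia in WT (log2 fold change 2.19, SE 0.17, adjusted p = 9.1e-08, edgeR) and 2.89-fold in Fgg mice (1.53, SE 0.17, adjusted p = 2.1e-06, edgeR). Its enzyme partner Alox5 did not follow. Alox5 was at 7.69, 9.32 and 8.07 CPM in WT and 7.73, 8.88 and 12.1 CPM in Fgg infiltrating cells. The log2 difference from microglia was -0.02 in WT (95% interval -0.60 to 0.56) and -0.10 in Fgg mice (-0.68 to 0.47), intervals that leave out a change of 1 log2 unit. Ptges was not called between cell types either, at 4.16, 11.8 and 5.27 CPM in WT and 0.181, 1.68 and 7.59 CPM in Fgg infiltrating cells. Without Fgg microglia replicate 2, Ptges passed in Fgg mice (adjusted p = 0.044, edgeR).

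The genes lower in infiltrating cells were those with the highest levels in sham microglia, apart from Alox5ap. Ptgs1 was at 37.8, 33.2 and 21.7 CPM in WT and 24.9, 58.0 and 48.6 CPM in Fgg infiltrating cells, 6.51-fold and 7.10-fold below microglia (log2 fold changes -2.70 and -2.83, adjusted p = 2.4e-06 and 1.2e-06, edgeR). Hpgds was at 16.2 to 22.4 CPM in WT and 13.2 to 30.4 CPM in Fgg infiltrating cells, with log2 fold changes of -2.71 and -2.57 (adjusted p = 5.8e-07 and 6.5e-07, edgeR). Ltc4s was at 9.77, 5.84 and 11.1 CPM in WT and 2.44, 10.8 and 10.4 CPM in Fgg infiltrating cells, with log2 fold changes of -2.38 and -3.54 (adjusted p = 0.00018 and 3.3e-06, edgeR). Tbxas1 had log2 fold changes of -1.25 and -1.60 (adjusted p = 0.00045 and 3.3e-05, edgeR). Platelets, which carry Ptgs1 and Tbxas1, had markers that summed to 6.30 to 48.9 CPM in microglia and 35.0 to 142 CPM in infiltrating cells, and their part in these levels was not tested.

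**Figure D4:**
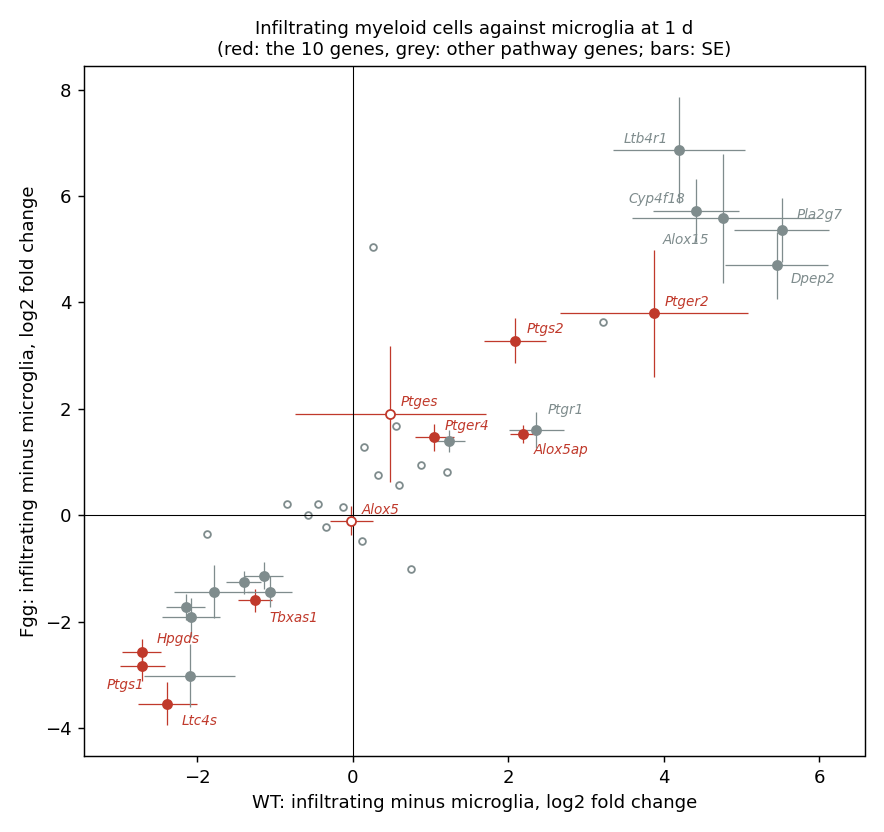
Log2 fold change of infiltrating myeloid cells over microglia at 1 d in WT (horizontal axis) and Fgg mice (vertical axis), with SE bars, for the 10 genes (red) and 30 other genes of the pathway (grey). Filled points were called in both genotypes, and genes with 3 or fewer counts in any of the 4 groups are left out. The 8 red filled points lie in the lower left and the upper right, and Alox5 lies at the centre.

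Other genes of the pathway came from a list of 43, of which 40 passed the filter on counts. In WT microglia at 1 d, 4 were higher and 4 lower than sham (8 of 40, against 12.3% of all genes), with a median log2 fold change of -0.02 over the 40 (0 over all genes tested). The genes higher were Ptges3, the cytosolic prostaglandin E synthase (74.5, 91.1 and 96.3 CPM against 36.0, 38.2 and 45.2 CPM, log2 fold change 1.13, SE 0.18, adjusted p = 0.00012), Pla2g4a, the cytosolic phospholipase A2 that frees arachidonic acid, Cyp4f18, which inactivates leukotriene B4, and Akr1b3, an aldose reductase. Cyp4f18 was at 7.86, 1.05 and 1.72 CPM in WT microglia at 1 d (206, 29 and 44 counts). In sham it was at 0.159, 0.456 and 0.603 CPM, and in WT infiltrating cells at 72.1 to 82.8 CPM. Replicate 1, the highest of these WT microglia libraries, also had their highest summed neutrophil markers (842 CPM, against 173 and 565 CPM). The part of infiltrating cells in the level of Cyp4f18 was not tested. Pla2g4a was at 35.2, 55.3 and 54.8 CPM in WT microglia at 1 d and 13.6, 18.2 and 20.7 CPM in sham (log2 fold change 1.47, SE 0.25, adjusted p = 0.00028, edgeR). The genes lower included Hpgd, the enzyme that inactivates prostaglandin E2, at 64.0, 51.0 and 33.6 CPM against 147, 180.1 and 199 CPM in sham (log2 fold change -1.82, SE 0.37, adjusted p = 0.0014, edgeR). Pla2g15, a lysosomal phospholipase (-1.17, adjusted p = 0.00066), Mgll, the lipase that frees arachidonic acid from an endocannabinoid (-1.85, adjusted p = 0.025), and Ggt5, which turns leukotriene C4 into D4 (-2.01, adjusted p = 0.033, edgeR), were also lower.

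In Fgg microglia at 1 d, Pla2g4a (log2 fold change 1.29, adjusted p = 0.0015) and Akr1b3 (1.02, adjusted p = 0.033) were higher than sham and Hpgd (-1.20, adjusted p = 0.039, edgeR) was lower (3 of 40, against 6.64% of all genes). Between genotypes 0 of the 40 were called in any of the 3 comparisons. At an unadjusted p under 0.05 in edgeR were 2, 0 and 4 in microglia at 1 d and 7 d and in infiltrating cells. Over all 23815 genes tested the corresponding numbers were 1209, 795 and 2749. At 7 d Cyp4f18 was the single gene of the 40 called against sham, higher in WT (2.94, adjusted p = 0.0069) and in Fgg microglia (2.57, adjusted p = 0.040, edgeR), where 2.02% and 0.663% of all genes were called. It was at 2.76 to 3.59 CPM in WT and 1.51 to 3.43 CPM in Fgg microglia of 7 d, and the part of infiltrating cells was not tested. From 1 d to 7 d Ptges3 and Pla2g4a fell in both genotypes, by 1.60 and 1.65 on the log2 scale in WT and by 1.46 and 1.64 in Fgg microglia (adjusted p from 2e-05 to 0.00052, edgeR), and Pla2g7, the platelet-activating factor hydrolase, rose in WT (1.85, adjusted p = 0.030, edgeR). Both genes shared with Ptgs2 a call between the days, which Ptger4 did not have.

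Between cell types, 14 of the 40 were called in WT mice, 7 higher and 7 lower in infiltrating cells (11.9% of all genes were called), and 15 in Fgg mice, 8 higher and 7 lower (16.7% of all genes). Pla2g7 was at 103 to 108 CPM in WT infiltrating cells and 1.16 to 3.36 CPM in WT microglia at 1 d (log2 fold change 5.52, SE 0.61, adjusted p = 3e-06, edgeR). Dpep2, which turns leukotriene D4 into E4, and Cyp4f18 had log2 fold changes of 5.45 and 4.42 in WT and 4.70 and 5.72 in Fgg mice. Daglb, Pla2g15 and Hpgd were lower in infiltrating cells, with log2 fold changes of -2.15, -1.40 and -2.07 in WT and -1.72, -1.26 and -1.92 in Fgg mice. Pla2g4a, which was higher in injured than in sham microglia at 1 d, was lower in infiltrating cells than in microglia of that day (-1.14 in WT, adjusted p = 0.0029, and -1.13 in Fgg mice, adjusted p = 0.0025, edgeR). The leukotriene B4 receptor Ltb4r1 was among the genes higher in infiltrating cells, and of the 5 prostanoid receptors tested beside the 10 genes 0 were called in WT mice and 1, the prostacyclin receptor Ptgir, in Fgg mice.

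The genes whose levels were most like each of the 10 were sought among 10491 protein-coding genes, as the Pearson correlation of log2(CPM + 1) over the 21 libraries, which share 7 groups and 2 cell types. Ptgs1 was closely like Slco2b1 (r = 0.992), Hpgds like Sgce (0.985), and Ltc4s like Inpp4b (0.984) and St3gal6 (0.982). Ptgs2 was most like Pgam1 (0.981), a glycolytic enzyme, and Ero1l (0.980), an oxidase of the endoplasmic reticulum. Ptger4 was most like Rai14 (0.965) and Gpx1 (0.95), Alox5ap like Atg3 (0.960) and Eps8 (0.959), Ptger2 like Nr4a2 (0.967) and Cish (0.963), and Tbxas1 like Gal3st4 and Camk1 (0.973 for both). Ptges (Hmga1b, 0.900, and Fosl1, 0.891) and Alox5 (G3bp2, 0.800, and Ptpn1, 0.758) had the lowest values. Among the 10 genes themselves, Hpgds and Alox5ap were the most opposed pair (r = -0.922), followed by Ptgs2 and Ltc4s (-0.909). These correlations describe 21 libraries and were not tested.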

How the data were processed

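The authors quantified the reads of 21 libraries with salmon (GRCm38). The deposited values are expected counts of each gene, with gene length divided out and no normalization between libraries. Here they were rounded, genes under 5 counts in all were left out, and 23815 were tested. Of 45706 identifiers 45143 matched GENCODE M21. One edgeR 4.0.16 fit (R 4.3.3, TMM, glmQLFTest) gave each of the 7 groups a mean, with Benjamini-Hochberg adjustment over all genes. A gene was called where its log2 fold change exceeded 1 in size at an adjusted p below 0.05, the general threshold in the study's methods, or below 0.1 between genotypes, the cutoff it gives for genotypes at 1 d. Differences between genotype effects were called at an adjusted p below 0.1. DESeq2 1.42.0 was an alternative. The p-values measure the spread between libraries of 2 pooled mice each. Promoters came from RefSeq (GRCm38.p6). The scripts were tested on simulated data.

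Replicate numbers paired WT with Fgg microglia at 1 d by their deviations from the group means (r = 0.442, 0.212 and 0.130), and no other comparison had all pairs above 0.1. Named are the 10 genes, up to 3 other called pathway genes per comparison and direction with the smallest adjusted p, further called ones chosen after their values were seen, and the 2 genes most like each of the 10, apart from an item that is not reported here. The 10 genes and the lists were chosen with earlier results of these data known.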

Additional observations from a re-analysis of the deposited data

How the results depend on the processing

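Of 31 calls of one of the 10 genes in one comparison, 22 held under every alternative run and 9 were lost under at least 1, with 0 reversed. The counts of genes called, and the ratio of Ptgs2 to Ptgs1, gave 249 values under alternatives, of which 239 stayed within the limits set for a change and 10 moved. For WT microglia at 7 d against sham, DESeq2 and the replicate block each gave 2 genes called in place of 1, since Ptgs2 joined Ptger4. For Fgg microglia at 7 d against sham, a threshold of 1.5 on the log2 fold change and a fit of the compared groups only each gave 0 in place of 1, and leaving out 1 library gave 0 to 1. For Fgg against WT microglia at 1 d, a fit of the compared groups only gave 0 in place of 1, and leaving out 1 library gave 0 to 1. The replicate block also ended the call of Ptges in Fgg microglia at 1 d (adjusted p = 0.060, edgeR) and changed no other call. Where the numbers did not pair samples, it is an alternative only. Ptgs1 in WT microglia at 1 d was not called at the threshold of 1.5. Of the 99 results not called, 28 changed sign under at least 1 alternative and 3 passed under at least 1. The cause of these changes was not tested. With DESeq2's size factors the median log2 fold change over all genes was -0.01 in place of -0.13 for Fgg infiltrating cells against microglia and moved by under 0.1 elsewhere. Depth limits Ptger2, which held 0, 0 and 3 counts in the sham microglia libraries, and Ptges, which held none there.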
